A study of Mus musculus with 4 samples.

Results

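The CXC chemokines are small secreted proteins that steer leukocytes, and 10 of their genes were followed here in dendritic cells grown from bone marrow in which Rbpj was or was not targeted. The genes were Cxcl1, Cxcl2, Cxcl3, Cxcl5, Cxcl9, Cxcl10, Cxcl11, Cxcl16, Pf4 and Ppbp. Every probe on the array whose RefSeq accession carried one of these symbols was taken, which gave 10 probes for 9 of the 10 genes, out of 39429 probes and 19751 named genes in all. No accession in the array files matched Cxcl11 in the RefSeq table used, which lists Cxcl11 as a transcribed pseudogene in the C57BL/6J reference, so Cxcl11 has no value. A Cxcl11 probe filed under an accession that this table does not hold would have been missed. Cxcl9 had 2 probes and each of the other genes had 1.

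RNA was measured on 4 one-colour Agilent arrays, 2 labelled BMDC_RFF11 and 2 labelled BMDC_RFF. Both groups were CD11c+ cells isolated from marrow cultures of female C57BL/6 mice 8 weeks of age, kept for 6 days with GM-CSF at 20 ng/mL, and all mice carried Rbpj fl/fl. BMDC_RFF11 cells, called Rbpj-deficient below, also carried CD11c-cre, a recombinase driven by the promoter of Itgax. BMDC_RFF cells, called control below, had no cre, and no group had the cre with an intact Rbpj, so loss of Rbpj and presence of the cre cannot be told apart. RNA of each genotype was a pool from 4 mice, and the labels do not say whether its 2 arrays had pools of their own. Each p-value below therefore covers no more than array-to-array spread, perhaps a technical one.

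CXC chemokines fall into families by receptor. Those with a glutamate, leucine and arginine before the CXC motif act on CXCR2 and draw neutrophils, and several of their genes are classical targets of NF-kappaB in activated myeloid cells. A second family, induced by interferons, acts on CXCR3 and draws T cells and natural killer cells. Platelet factor 4 (Pf4) and pro-platelet basic protein (Ppbp) are stored in platelet granules, and CXCL16 is made as a membrane protein that binds CXCR6.

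The stretches before the transcription starts are shown for 4 genes that were measured above background and share a regulatory sequence, the kappaB element bound by NF-kappaB. Cxcl10 holds an interferon response element as well. The stretches come from RefSeq annotation of GRCm38.p6 and end at the base before the start. Capitals mark matches, on either strand, to GGAATTTCC (a kappaB 9-mer), to the longer degenerate kappaB consensus, or to GAAANNGAA, a pattern of interferon response elements.
Cxcl1 (chr5:90891095-90891244, plus strand): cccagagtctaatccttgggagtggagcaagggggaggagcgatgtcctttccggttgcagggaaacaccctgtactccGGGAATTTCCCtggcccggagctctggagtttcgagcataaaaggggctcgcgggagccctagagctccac
Cxcl2 (chr5:90903749-90903898, plus strand): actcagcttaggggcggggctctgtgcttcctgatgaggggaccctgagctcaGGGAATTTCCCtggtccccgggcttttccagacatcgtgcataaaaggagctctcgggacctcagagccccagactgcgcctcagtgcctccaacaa
Cxcl3 (chr5:90785951-90786100, plus strand): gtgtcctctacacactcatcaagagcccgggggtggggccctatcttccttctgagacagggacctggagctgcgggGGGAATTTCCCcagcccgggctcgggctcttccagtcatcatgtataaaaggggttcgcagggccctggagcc
Cxcl10 (chr5:92348890-92349139, minus strand): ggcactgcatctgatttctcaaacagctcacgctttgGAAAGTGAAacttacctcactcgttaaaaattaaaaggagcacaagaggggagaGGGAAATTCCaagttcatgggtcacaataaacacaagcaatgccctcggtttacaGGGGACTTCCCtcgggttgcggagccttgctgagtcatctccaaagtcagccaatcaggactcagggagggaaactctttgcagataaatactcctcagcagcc

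Promoter windows were found for 7 of the 10 genes, and 250 bases before each start were searched on both strands. The patterns were chosen after these windows had been seen, so their shares over all windows are no test of the matches. GGAATTTCC lay in Cxcl1, Cxcl2 and Cxcl3, beginning 70, 96 and 72 bases before the start, and in Cxcl10 on the opposite strand, 158 bases before it. It was present in 94 of all 32851 windows of the same length, or 0.286%. Each of these 4 matches lies within a match to the kappaB consensus, which occurred in 7.25% of all windows, and Cxcl10 held further overlapping consensus matches from 104 bases before the start. GAAANNGAA, in 7.13% of all windows, lay in Cxcl10, beginning 213 bases before the start, and in Cxcl9, 175 bases before it. TATAAA, in 12.4% of all windows, was found in Cxcl3, Cxcl9 and Ppbp. TGGGAA, the core that RBPJ binds, was in 21.6% of all windows and in none of these 7. A match is a string of letters and not a measured binding site, and an absent match says only that the letters are not in this window.

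**Figure D1:**
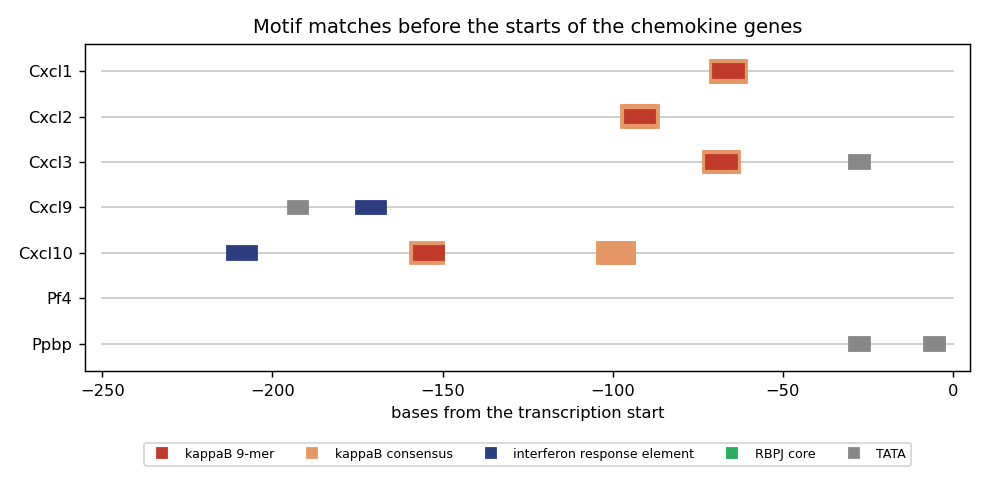
Positions of motif matches in the 250 bases before the transcription start of the 7 chemokine genes with a RefSeq promoter window. The horizontal axis is the distance from the start in bases, and each bar is a match on either strand to the kappaB 9-mer, the kappaB consensus, the interferon response element, the RBPJ core or TATA. The kappaB 9-mer lies in Cxcl1, Cxcl2, Cxcl3 and Cxcl10, the interferon response element in Cxcl9 and Cxcl10, and the RBPJ core in none of the 7.

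Levels are log2 of the background-corrected signal minus the 75th percentile of the array, so a level of 0 is that percentile. They depend on the probe, and levels of different probes are not set against each other. Rbpj, the gene aimed at, read 1.37 and 1.44 in Rbpj-deficient cells, against 2.69 and 2.61 in control cells, a log2 change of -1.25 (limma adjusted p = 0.0278), so that the targeted gene was lower in the cells labelled as lacking it. Its signal stayed well above background on both Rbpj-deficient arrays, above the 75th percentile, and Rbpj RNA was therefore reduced rather than absent at this probe. With any 1 array removed the adjusted p of Rbpj lay between 0.108 and 0.144, and it no longer passed. Itgax, whose product CD11c was used to isolate the cells, read 6.65 and 6.45 in Rbpj-deficient cells, against 6.69 and 6.63 in control cells, and all 9 dendritic cell markers tested were well above background on the 4 arrays. Over all 17973 genes tested with limma, 338 passed a Benjamini-Hochberg adjusted p of 0.05, which is 1.88% of them (1.04% above and 0.84% below the control level), and leaving out any 1 array left 0 or 1.

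None of the chemokine genes passed this test. Of the 9 genes with a probe, 7 were well above background on all 4 arrays and were tested, while Cxcl5 and Cxcl9 were not tested. The 7 tested were Cxcl1, Cxcl2, Cxcl3, Cxcl10, Cxcl16, Pf4 and Ppbp, and 0 of the 7 passed, beside 1.88% of all genes. At an unadjusted p of 0.05 there were 3 of the 7, Pf4, Cxcl2 and Ppbp, beside 24.1% of all genes. These same 3 were higher on both Rbpj-deficient arrays than on either control array, a pattern found in 26.8% of all genes, and no chemokine was lower on both, as 32.3% of all genes were. Without regard to direction the arrays of the genotypes did not overlap for 3 of the 7, beside 59.1% of all genes. The log2 changes ran between -0.07 for Cxcl16 and 0.47 for Pf4 with a median of 0.35, against a median of -0.01 over all genes tested. The middle 90% of all genes lay between -0.42 and 0.47. With 2 arrays against 2 an exact permutation test of a single gene cannot give a two-sided p below 0.333.

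**Figure D2:**
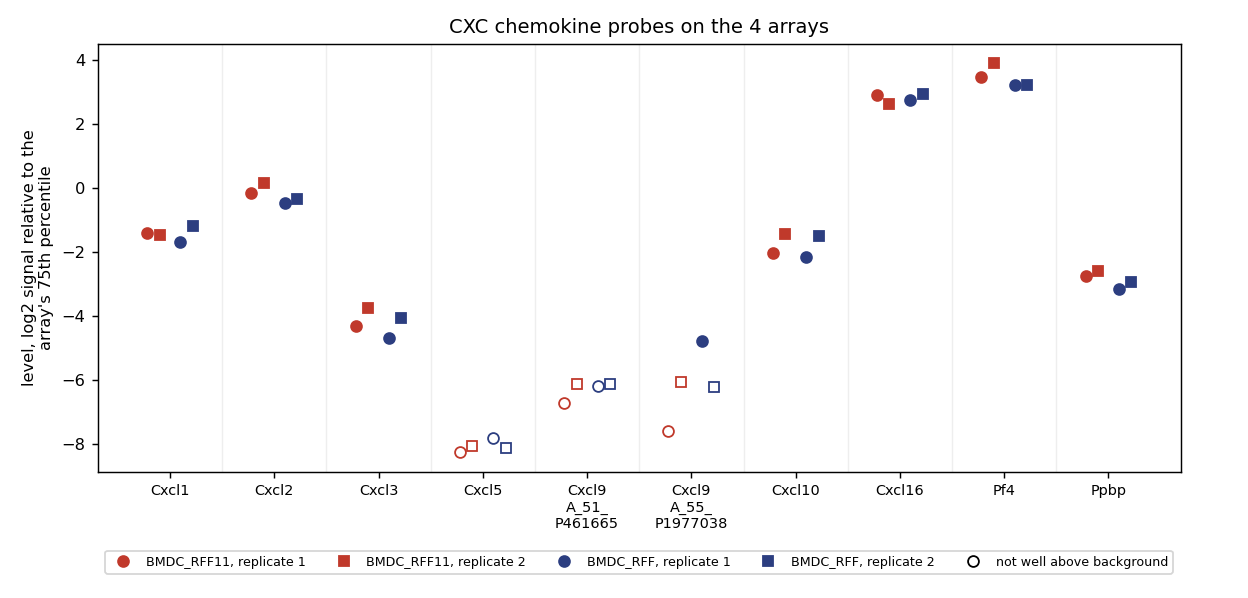
Levels of the 10 CXC chemokine probes on each array, as log2 signal relative to the array's 75th percentile, with the Rbpj-deficient arrays (BMDC_RFF11) in red left of the control arrays (BMDC_RFF) in blue. Filled points were well above background and open points were not. Both Rbpj-deficient arrays lie above both control arrays for Cxcl2, Pf4 and Ppbp, while the genotypes overlap for the other probes. Heights of different probes are not comparable.

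Among the ligands of CXCR2, Cxcl2 lay higher in Rbpj-deficient cells without passing, and Cxcl1 differed by less than its control arrays did between themselves. Cxcl2 encodes MIP-2, a neutrophil attractant that activated macrophages and dendritic cells make. Its signal was 1282 and 1595 units in Rbpj-deficient cells and 992.5 and 1132 units in control cells, which are levels of -0.17 and 0.14 against -0.47 and -0.33. Both Rbpj-deficient arrays were above both control arrays, by a smallest gap that was narrower than the 0.31 between the 2 Rbpj-deficient arrays. The log2 change was 0.38, or 1.31-fold (SE 0.13, 95% interval 0.03 to 0.74, limma adjusted p = 0.189). Without Rbpj-deficient replicate 2 it was 0.23 and with only replicate 1 of that genotype left out it was 0.54.

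Cxcl1 encodes KC, the closest mouse counterpart of the human growth-regulated chemokines. Its signal was 539.6 and 526.1 units in Rbpj-deficient cells and 425.6 and 631.2 units in control cells. The control arrays bracketed the Rbpj-deficient ones, with levels of -1.42 and -1.46 against -1.69 and -1.17. The log2 change was -0.01 (SE 0.19, adjusted p = 0.985), and the 95% interval of -0.53 to 0.51 leaves room for a change between 0.69-fold and 1.43-fold. The difference had no stable direction, at -0.26 and 0.25 with either control array left out and at -0.03 and 0.01 with either Rbpj-deficient array left out.

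Cxcl3, also a neutrophil attractant, was dim. It read 73.02 and 108.8 units in Rbpj-deficient cells and 53.43 and 85.76 units in control cells, or levels of -4.30 and -3.73 against -4.68 and -4.05. The genotypes overlapped. The arrays of a genotype differed by 0.57 in Rbpj-deficient cells and 0.63 in control cells, with replicate 2 the higher in both. The log2 change of 0.35 was smaller than either of those gaps (SE 0.30, 95% interval -0.48 to 1.18, adjusted p = 0.523), and it stood at 0.15 with another background correction. Without 1 array it lay between 0.04 (control replicate 1 left out) and 0.66 (control replicate 2 left out). Cxcl1, Cxcl2 and Cxcl3 are close relatives, and whether a probe of one also binds RNA of another was not tested.

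Cxcl5, called LIX in the mouse and made mostly by epithelium and stroma, was not well above background on any array. Its probe read 4.75 and 5.41 units in Rbpj-deficient cells and 6.20 and 5.11 units in control cells. No fold is given, since no array of either genotype measured it.

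Ppbp, whose product is trimmed by proteases into a CXCR2 ligand, lay higher in Rbpj-deficient cells without passing. It read 214.5 and 240.8 units in those cells and 152.9 and 186.9 units in control cells, or -2.75 and -2.59 against -3.17 and -2.93 as levels. The groups did not overlap. The log2 change was 0.38, or 1.30-fold (SE 0.11, 95% interval 0.07 to 0.69, adjusted p = 0.160), the lowest adjusted p of the 7 genes.

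Pf4 had the highest change of the chemokines, again without passing. Its product, also called CXCL4, binds heparin-like chains and is released by activated platelets. The signal was 15940 and 21380 units in Rbpj-deficient cells and 12640 and 13120 units in control cells, with levels of 3.47 and 3.88 against 3.20 and 3.20. Both Rbpj-deficient arrays were higher than both control arrays, which stood at the same level once scaled, and replicate 2 was the higher of the Rbpj-deficient arrays by 0.42. The log2 change was 0.47, or 1.39-fold (SE 0.16, 95% interval 0.04 to 0.90, adjusted p = 0.184), and it stood at 0.26 with replicate 2 of that genotype left out and at 0.68 with its replicate 1 left out.

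The 3 named genes whose centred levels over the 4 arrays lay closest to those of Pf4, by Euclidean distance, were Fmr1nb at 0.0551, Cr2 at 0.0837 and Klrd1 at 0.0882. Their log2 changes were 0.53, 0.49 and 0.39, and none passed, with limma adjusted p between 0.155 and 0.226. They were picked by their levels on these same arrays, so changes like that of Pf4 follow from the choice. Cr2 lay near the limit of detection, at -5.05 and -4.53 in Rbpj-deficient cells against -5.25 and -5.31 in control cells.

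Pf4 and Ppbp are also markers of platelets and megakaryocytes, so a list of 13 other markers of those cells was set beside them. Of the 13, 9 were tested and none passed after adjustment over all genes, of which 1.88% did. There were 4 above 0 and 5 below 0, with a median log2 change of -0.10. The summed signal of the 13, in multiples of the array's 75th percentile, was 12.1 and 10.6 in Rbpj-deficient cells and 12.9 and 13.5 in control cells. Most of that sum was 1 gene, Vwf, so it says little about the other markers. Vwf read 3.42 and 3.20 in Rbpj-deficient cells against 3.50 and 3.58 in control cells (log2 change -0.23, limma adjusted p = 0.256). Itga2b, the platelet integrin alpha IIb, had a log2 change of 0.82 (adjusted p = 0.0909), with -4.20 and -3.78 in Rbpj-deficient cells against -4.75 and -4.87 in control cells. Gp9, a subunit of the platelet receptor for von Willebrand factor, lay near the limit of detection. It read -5.20 and -5.14 in Rbpj-deficient cells against -5.47 and -5.49 in control cells. Well above background on the Rbpj-deficient arrays alone, Gp9 counts among the 9 tested and the 4 above 0 only through them. No change is given for it, since no control array measured it. Gp1ba, Gp5, Gp6 and Tubb1 were not above background on any array. In bulk RNA fewer cells of a type and less RNA per cell cannot be told apart, and the part of such cells in the levels of Pf4 and Ppbp was not tested.

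Of the ligands of CXCR3, Cxcl10 was measured on all arrays and Cxcl9 was at the limit of detection. Cxcl10 encodes IP-10, which draws activated T cells. Its signal was 349.4 and 531.2 units in Rbpj-deficient cells and 305.5 and 503.4 units in control cells, or levels of -2.04 and -1.45 against -2.17 and -1.5. In each genotype the arrays lay farther apart (0.60 in Rbpj-deficient and 0.67 in control cells) than the genotypes did. Replicate 2 was the higher in both. The log2 change was 0.09 (SE 0.32, 95% interval -0.79 to 0.97, adjusted p = 0.888), so that changes between 0.58-fold and 1.96-fold lie inside the interval. Its direction turned without Rbpj-deficient replicate 2 (-0.21) and without control replicate 1 (-0.24), and the change was 0.39 and 0.42 with the other array of each genotype left out.

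Cxcl9 encodes MIG, which interferon gamma induces. Probe A_51_P461665 was not well above background on any array, at -6.72 and -6.12 in Rbpj-deficient cells and -6.19 and -6.12 in control cells. Probe A_55_P1977038 was well above background on 1 of 4 arrays, control replicate 1, with -7.58 and -6.05 in Rbpj-deficient cells against -4.79 and -6.20 in control cells. The genotypes overlapped on both probes. No fold is given, since a single array measured the gene.

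Cxcl16 was bright in both genotypes, with a difference inside the spread between arrays. Its product is a membrane-bound chemokine and scavenger receptor that antigen-presenting cells carry. It read 10750 and 8957 units in Rbpj-deficient cells and 9168 and 10830 units in control cells, with levels of 2.90 and 2.63 against 2.74 and 2.93. The groups overlapped. The log2 change was -0.07 (SE 0.13, adjusted p = 0.767), and its interval of -0.42 to 0.28 spans 0.75-fold to 1.21-fold. Without Rbpj-deficient replicate 2 it was 0.065 and without control replicate 2 it was 0.02, while it was -0.20 and -0.16 without replicate 1 of Rbpj-deficient or control cells.

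**Figure D3:**
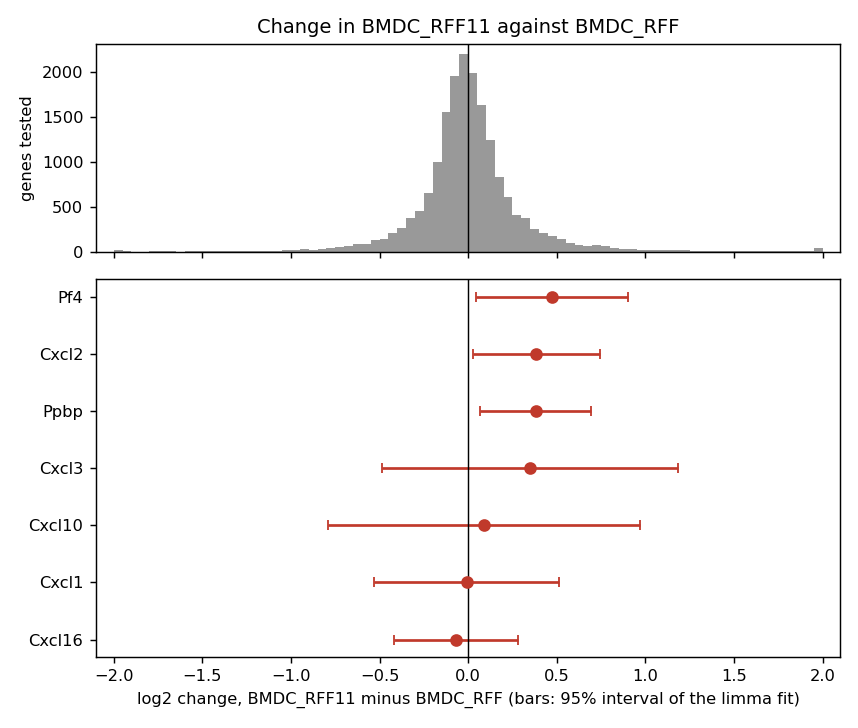
Log2 changes, Rbpj-deficient (BMDC_RFF11) minus control (BMDC_RFF). The upper panel counts all 17973 genes tested in equal steps of the log2 change, with genes beyond the axis gathered in the end bars. The lower panel gives the 7 chemokine genes tested, with 95% intervals of the limma fit. The intervals of Pf4, Cxcl2 and Ppbp lie above 0 before adjustment over all genes, and those of the other 4 span 0.

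**Figure D4:**
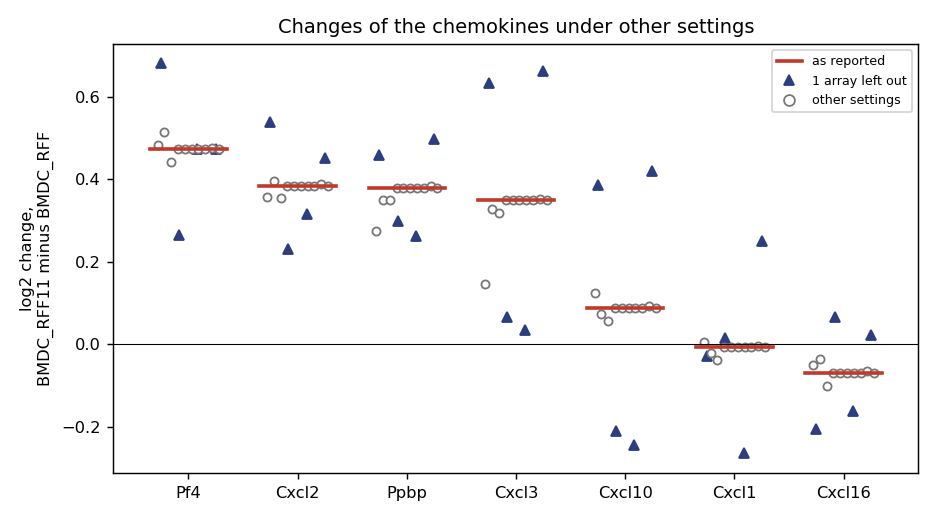
Log2 change, Rbpj-deficient (BMDC_RFF11) minus control (BMDC_RFF), of the 7 chemokine genes tested, under each setting. The red line is the value reported, triangles leave out 1 array each, and open points are the other settings. Pf4, Cxcl2, Ppbp and Cxcl3 stay above 0 under all settings, while points of Cxcl1, Cxcl10 and Cxcl16 lie on both sides of 0.

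On chromosome 5 the genes lie in a pair of clusters. In the first, RefSeq orders them as Cxcl5, Ppbp, Pf4, Cxcl3, Cxcl15, Cxcl1 and Cxcl2. Reading along it, the log2 changes of the tested genes were 0.38, 0.47, 0.35, -0.01 and 0.38, so that Cxcl1 stood near 0 next to Cxcl2. Cxcl15, which is no member of the list, was not above background on any array. In the second cluster, Art3, which lies between Cxcl9 and Cxcl10 and encodes an ADP-ribosyltransferase, had a log2 change of -0.04 (adjusted p = 0.889). Cxcl16 lies apart on chromosome 11.

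Receptors of these ligands and the other CXC chemokines were mostly dim. Of 13 such genes 5 were tested and none passed, beside 1.88% of all genes. The other 8 were not above background on any array. Cxcr2, the receptor of the neutrophil chemokines, read -2.24 and -2.05 in Rbpj-deficient cells, against -2.46 and -2.97 in control cells, a log2 change of 0.57 (95% interval 0.01 to 1.12, adjusted p = 0.201). Cxcr6, the receptor of CXCL16, read -4.46 and -4.49 in Rbpj-deficient cells, against -4.65 and -4.93 in control cells, with a change of 0.31 (adjusted p = 0.201). Both lay higher on both Rbpj-deficient arrays, as 26.8% of all genes did. So did Cxcr5, near the limit of detection. It was well above background on only 1 control array and counts among the 5 only through the Rbpj-deficient arrays. Cxcr4, the receptor of CXCL12, was the lowest of the 5 at -0.03 (adjusted p = 0.882).

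Cxcr2 is also a marker of neutrophils, and in a list of 13 neutrophil genes that holds it 11 were tested. Of the 11, 4 rose, none fell and 7 did not pass, while 1.04% of all genes rose and 0.84% fell. The median log2 change was 0.71. At an unadjusted p of 0.05 there were 9 of the 11, beside 24.1% of all genes. Summed over the 12 of these genes on the array, the signal was 60.2 and 53.6 times the 75th percentile in Rbpj-deficient cells and 35.4 and 40.2 times in control cells. Most of the sum, and of its difference, was S100a8 and S100a9. S100a9 read 4.91 and 4.57 in Rbpj-deficient cells against 3.76 and 4.01 in control cells (limma adjusted p = 0.0813). The 4 that rose were Mpo (0.74), Ngp (0.54), Stfa2 (0.81) and Stfa2l1 (0.90), which encode myeloperoxidase, a granule protein and a pair of stefin protease inhibitors. S100a8, a calcium-binding protein of neutrophils and monocytes, had a change of 0.83 (adjusted p = 0.0712), and the neutrophil elastase gene Elane one of -0.14 (adjusted p = 0.264). Whether neutrophils or their precursors had a part in the levels of Cxcl2 or Cxcr2 was not tested. Of 11 macrophage and monocyte markers tested 1 rose, 1 fell and 9 did not pass, beside 1.04% rising and 0.84% falling over all genes. There were 3 above 0 and 8 below 0, with a median log2 change of -0.14. The 3 were Marco, Adgre1 and Csf1r. Among the 8 were Lyz2 (-0.49, limma adjusted p = 0.0723) and Ccr2 (-0.58, limma adjusted p = 0.101), which did not pass. The scavenger receptor gene Marco rose (1.29, adjusted p = 0.0322) and the Fc receptor gene Fcgr1 fell (-0.61, adjusted p = 0.0424), while Adgre1 (0.34, adjusted p = 0.0766) and Csf1r (0.04, adjusted p = 0.644) did not pass.

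NF-kappaB-induced inflammatory genes, the class to which Cxcl1, Cxcl2 and Cxcl3 belong, mostly did not pass. Of 14 tested 1 rose, none fell and 13 did not pass, while 1.88% of all genes passed. There were 8 above 0 and 6 below 0, with a median log2 change of 0.16. At an unadjusted p of 0.05 there were 9 of the 14, beside 24.1% of all genes. Il1a and Ptgs2 were well above background on both Rbpj-deficient arrays but on only 1 control array. They count among the 14, the 8 and the 9, and enter the median, only through the Rbpj-deficient arrays. The gene that rose was Il1b, the precursor of interleukin-1 beta, with 0.42 and 0.13 in Rbpj-deficient cells against -0.93 and -0.94 in control cells and a change of 1.21 (SE 0.11, adjusted p = 0.0379).

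Interferon-induced genes and interferon receptors, set beside Cxcl9 and Cxcl10, did not pass in any of 21 cases tested with limma. Over all genes 1.88% passed. At an unadjusted p of 0.05 there were 4 of the 21, beside 24.1% of all genes, and the median log2 change was -0.06, with 9 above 0 and 12 below. The highest was the transcription factor Irf1 at 0.23 (adjusted p = 0.150) and the lowest the antiviral gene Rsad2 at -0.66 (adjusted p = 0.187), with -2.68 and -2.30 in Rbpj-deficient cells against -2.07 and -1.59 in control cells. For Rsad2 and several others of the list replicate 2 was the higher in both genotypes, as for Cxcl10, while for Irf1 replicate 1 was. The fit did not pair the arrays by replicate number, and a shift shared by replicates was not tested. The genes of interferon gamma and interferon beta, Ifng and Ifnb1, were not above background on any array.

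Enzymes known to shed or trim chemokines were tested for 5 of 6 genes, and none passed. Dpp4, which removes the first residues of CXCR3 ligands, had a log2 change of 0.06 (adjusted p = 0.730). Mmp12, a macrophage metalloproteinase that cleaves CXCR2 ligands, stood lowest at -0.37 (adjusted p = 0.0809), with 3.15 and 3.05 in Rbpj-deficient cells against 3.50 and 3.43 in control cells. Adam10, which sheds CXCL16 and was named after its value was seen, stood at -0.19 (adjusted p = 0.176).

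**Figure D5:**
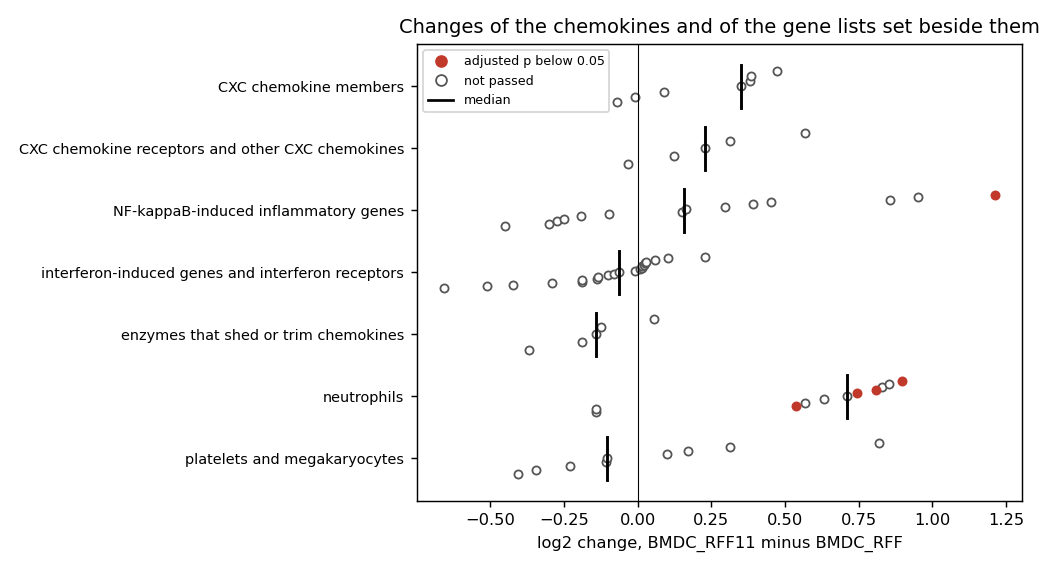
Log2 changes, Rbpj-deficient minus control, of the 7 chemokine genes tested and of the lists set beside them, 1 point a gene and a bar at the median of each list. Filled points passed an adjusted p of 0.05 and open points did not. None of the chemokines, receptors, interferon genes, enzymes or platelet markers is filled, while Il1b and 4 neutrophil genes are.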

How the data were processed

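Per the labels, RNA was pooled from 4 mice per genotype and 150 ng was labelled with Cy3. The spot intensity was deposited as read by Agilent Feature Extraction 10.7.1.1, per the file headers, with flags for spots well above background. The 4 arrays lay on 1 slide, 55.2% to 58.4% of 43020 gene spots were well above background on each, and 0 were saturated; the number of arrays limits the precision. Outlier spots (127 to 176 per array) were left out.

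The processed signal was taken to log2 and reduced by each array's 75th percentile, and repeated spots were averaged per probe. A probe entered the test if either genotype had it well above background on both arrays, with the brightest probe standing for its gene. Genotypes were compared with limma 3.58.1 in R 4.3.3 (lmFit and eBayes) and Benjamini-Hochberg adjustment over 17973 genes at 0.05. The procedure was tested on simulated data. Lists are described by counts, without a test of the list.

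The table of normalised log2 values deposited by the authors was made in a way that the sources used here do not give. It followed the scanner log2 values centred per probe (Pearson r of 0.9999 over 17973 probes in every column, same direction), with column medians between -0.03 and 0.05, and served as an alternative.

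Of 39429 probes 26055 took 1 symbol from RefSeq annotation of GRCm38.p6, 0 took several and 13374 took none. The array headers name mm9, so that annotation served for names, gene order and promoter sequence only. The members, the lists and the rule for named genes were chosen with earlier results of these data known. The rule named every member probe, Rbpj, Itgax, genes of the pathway lists past the threshold or else the highest and lowest, cluster neighbours, the nearest profiles and, of the cell type marker lists, 8 defining markers, of which Ly6g had no matched probe. Gp1ba, Gp5, Gp6, Tubb1, Vwf, Mpo, Ngp, Stfa2, Stfa2l1, S100a9, Marco, Fcgr1, Lyz2, Ccr2, Cxcr5, Il1a, Ptgs2, Ifng and Ifnb1 lie outside it. They were named with their values in view.
The promoter patterns searched were chosen after the windows had been seen.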

Additional observations from a re-analysis of the deposited data

How the results depend on the processing

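Across 14 alternatives, all chosen together with the main setting, 0 of the chemokines passed limma in every one. At an unadjusted p of 0.05 there were 0 to 4. The 0 were of 9 without a filter on dim probes, beside 3654 of all 32494 genes. The 4 were of 7 with the replicate number as a block, beside 3677 of all 17973 genes. The log2 change of Pf4, Cxcl2, Ppbp and Cxcl3 stayed above 0 in all 14, and the lowest adjusted p was 0.0911, for Ppbp with normexp (offset 50). Normexp was run on the median signal, as the files used hold no mean signal, and gave 0.15 for Cxcl3 and 0.0052 for Cxcl1, whose direction turned. Leaving out 1 array at a time gave 0.26 to 0.68 for Pf4, 0.23 to 0.54 for Cxcl2, 0.26 to 0.50 for Ppbp and 0.04 to 0.66 for Cxcl3. It gave -0.26 to 0.25 for Cxcl1, -0.24 to 0.42 for Cxcl10 and -0.20 to 0.065 for Cxcl16, with directions turning at 0.01 (Cxcl1), -0.21 (Cxcl10) and 0.02 (Cxcl16) too. In the authors' deposited table the difference was 0.48 for Pf4 and 0.39 for Cxcl2.

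Of 17973 genes 338 passed limma, and 894 did with normexp and 1547 with a trended robust variance prior. Without a filter on dim probes 0 passed, with 3654 at an unadjusted p of 0.05. Leaving out 1 array gave 0 to 1, with 2976 to 3506 at an unadjusted p. Over all genes the deviations of the replicate 1 arrays of the genotypes were close to uncorrelated (-0.05). A value over all genes cannot tell whether some genes share a shift by replicate. With the replicate number as a block 0 genes passed, with 3677 at an unadjusted p. For Cxcl3 and Cxcl10, as for several interferon-induced genes, replicate 2 was higher than replicate 1 in both genotypes. The block narrowed the SE of Cxcl3 and Cxcl10. It went from 0.30 to 0.07 for Cxcl3 (limma adjusted p = 0.150) and from 0.32 to 0.07 for Cxcl10 (limma adjusted p = 0.510). Rbpj kept its direction throughout, and its call was also lost without the filter (adjusted p = 0.260) and with the block (adjusted p = 0.101). The cause of these shifts was not tested, and a fit with 1 array removed also has fewer arrays. Signal over background limits Cxcl3, Cxcl5 and Cxcl9 most.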
